A study of Danio rerio with 12 samples.

Results

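The genes described here drive mitosis and cytokinesis: kif23, kif11, ccnb1, ccna2, cdk1, aurkb, plk1 and cdc20. They were chosen by name, with earlier results of these data known. Of these 8 genes, 7 had a probe set whose annotation gave that symbol alone, and aurkb is named only. kif23 had 2 probe sets and each of the others had 1, so that the members were 7 of 8793 named genes and 8 of 15502 tested probe sets. All of them were measured on every array.

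Whole zebrafish embryos had been injected at the 1 to 2 cell stage with morpholinos, antisense oligomers that block the splicing or translation of a transcript. One set of embryos, called morphants here, received a morpholino against pbx2 together with one against pbx4, which encode homeodomain transcription factors that bind DNA as partners of Hox proteins. The other set received a control morpholino, which the labels describe as a pbx2 mutant morpholino. RNA was collected from each set at 10 somites and at 18 somites and hybridised to Affymetrix zebrafish genome arrays, which gave 3 morphant arrays and 3 control arrays at 10 somites and the same numbers at 18 somites, 12 arrays in all.

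All embryos of the study, controls included, thus carried a morpholino, and no array of uninjected embryos was analysed here. The labels number the arrays of a group 1 to 3 and do not say whether a number stands for a separate clutch, injection or pool, so the spread behind each p-value is that between the samples at hand and may be technical. With 3 arrays a group, the number of arrays limits the precision. Each signal is an RNA level on a log2 scale, so a difference of -1 would be a halving, and it comes from all cells of the embryo together.

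A dividing cell enters mitosis when cyclin A and cyclin B activate the kinase Cdk1. Kinases such as Plk1 and motor proteins such as Kif11 then build the spindle. The anaphase promoting complex, switched on by Cdc20, has the cyclins and other proteins destroyed at the step when chromosomes separate. Kif23 bundles the microtubules between the separating chromosomes, where the cell then pinches apart. Transcripts of most of these genes peak late in the cell cycle, and in segmenting zebrafish embryos dividing cells are found in the nervous system, the tail bud and many other tissues.

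The median signal over all probe sets lay between 7.29 and 7.31 on the arrays at 10 somites and between 6.52 and 6.57 on those at 18 somites, and arrays of a group correlated with each other at 0.995 to 0.998 over probe sets. The morphants had higher signals of the targeted genes' transcripts at both stages, by 1.75 and 1.63 for pbx2 (limma, adjusted p = 7.05e-07 and 1.41e-06 at 10 and 18 somites) and by 0.45 and 0.34 for pbx4 (adjusted p = 0.00606 and 0.0192). Because morpholinos act on splicing or translation, a transcript's level is no check of the knockdown. The 8 control probe sets for artificial tags absent from embryos ranged between 4.17 and 6.14 on morphant arrays and between 4.04 and 6.26 on control arrays at 10 somites. At 18 somites they ranged between 3.44 and 5.34 on morphant arrays and between 3.45 and 5.29 on control arrays. The lowest member signal lay above the tag range of its group in each of the 4 groups, and belonged to kif23 (7.06 in morphants and 7.15 in controls at 10 somites, 6.25 in morphants and 6.21 in controls at 18 somites).

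At 10 somites the signals of cdk1, plk1 and the first of the 2 kif23 probe sets fell in morphants, to 76.5%, 81.4% and 71.6% of the control signal. At 18 somites ccnb1 and the first kif23 probe set fell, to 84.1% and 78.0%. The second kif23 probe set was at 89.5% and 94.8% and was not called at either stage (adjusted p = 0.399 and 0.701), nor was the mean of both kif23 probe sets at 18 somites (adjusted p = 0.0873). No member rose at either stage. All 8 probe sets had a mean signal below that of controls at both stages, although for ccna2 and the second kif23 probe set at 18 somites some alternatives gave a value above 0 (up to 0.04 and 0.025). In a bulk sample, fewer dividing cells and less of a transcript in each cell cannot be told apart.

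The count of members that fell was 3 of 8 probe sets at 10 somites, where 3.85% of all probe sets fell, and 2 of 8 at 18 somites, where 5.37% of all probe sets fell (limma, adjusted p under 0.05 over all probe sets). None rose, where 4.32% of all probe sets rose at 10 somites and 7.11% at 18 somites, and at an unadjusted p under 0.05 the count of members higher in morphants was 0 of 8 at each stage. At an unadjusted p under 0.05, 6 member probe sets were lower at 10 somites and 3 at 18 somites. The median difference of the members was -0.24 at 10 somites and -0.17 at 18 somites, beside -0.0045 and 0.001 over all probe sets. Because the members were chosen with earlier results of these data known, comparisons of them with all probe sets are a description and no test.

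The 3 morphant arrays all lay below the 3 control arrays for 6 of 8 member probe sets at 10 somites, as they did for 13.2% of all probe sets. At 18 somites this held for 4 of 8, against 12.7% of all probe sets.

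**Figure D1:**
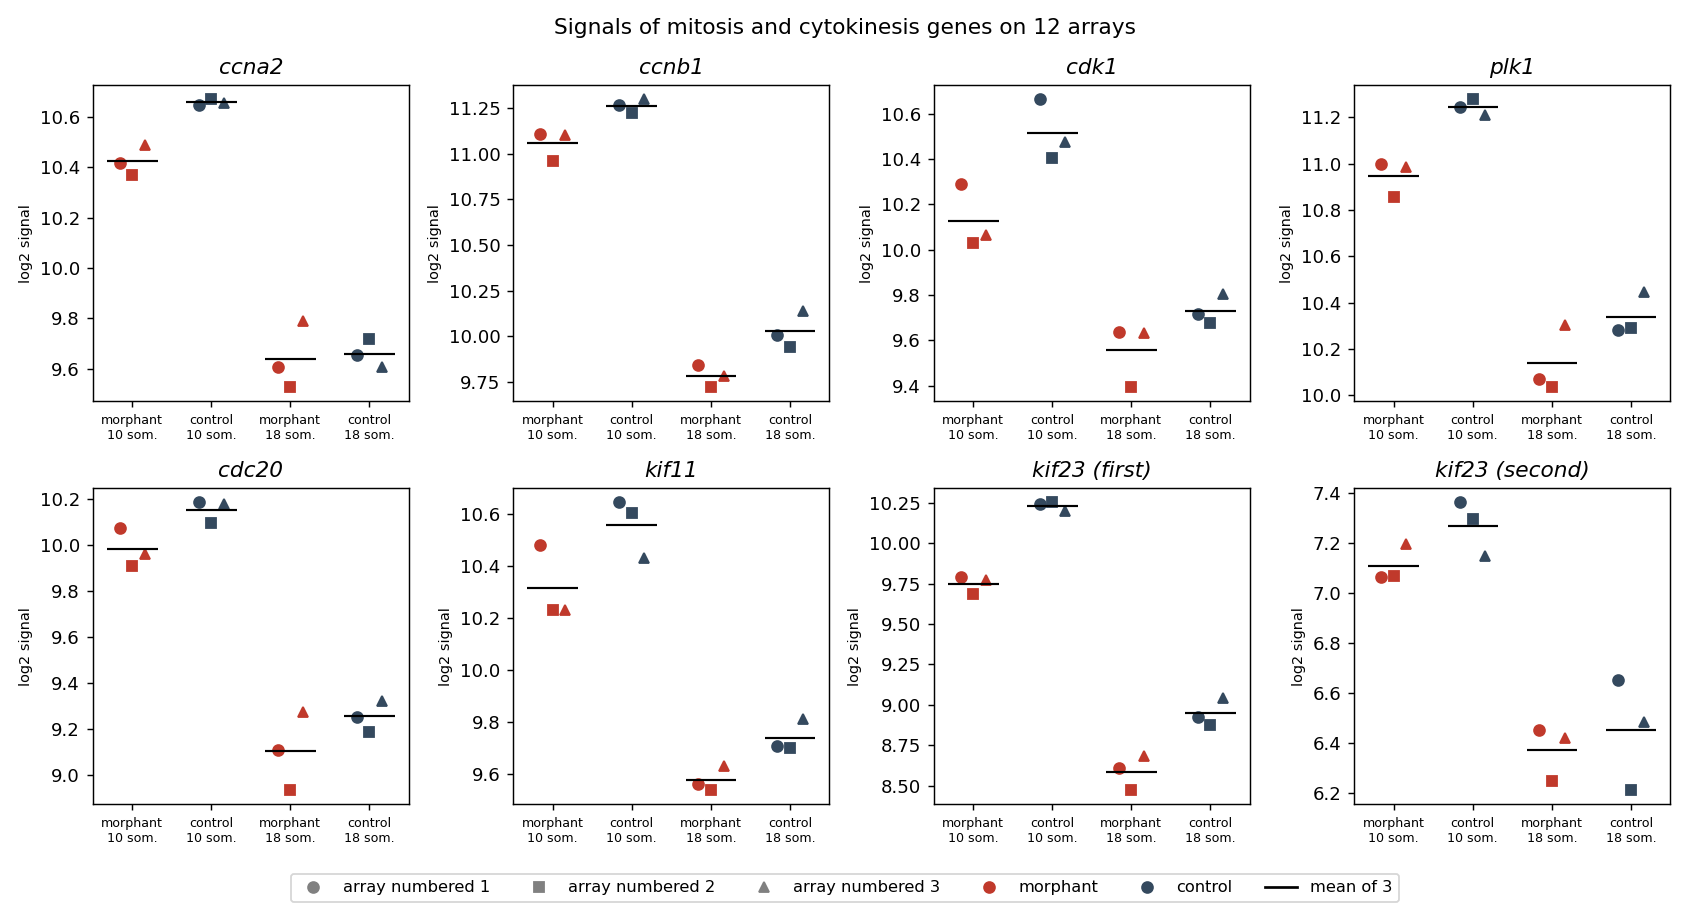
Log2 signal of the 8 member probe sets (vertical axis of each panel) on each of the 12 arrays, with morphants in red left of controls in dark blue at each stage, the marker shape giving the array number and the bar the mean of 3 arrays. At 10 somites the red and blue points overlap only for kif11 and for the second kif23 probe set.

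Of the cyclins, ccna2 encodes cyclin A2, which works with its kinases in S phase and at the entry into mitosis. Its signal at 10 somites was 10.42, 10.37 and 10.49 on the morphant arrays numbered 1, 2 and 3, against 10.65, 10.67 and 10.66 on the control arrays. The groups did not overlap and the controls lay close together, with an SD of 0.0111 in controls beside 0.0608 in morphants. The difference was -0.23 (SE 0.0732, 95% confidence interval -0.39 to -0.08), with an adjusted p of 0.0679, and it was not called.

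At 18 somites the ccna2 signal was 9.61, 9.53 and 9.79 on morphant arrays, against 9.65, 9.72 and 9.61 on control arrays. The morphant array numbered 3 was the highest of all, the one numbered 1 equalled the lowest control and the one numbered 2 lay below it. The difference of -0.02 (SE 0.0732, interval -0.18 to 0.14) was not called, with an adjusted p of 0.911. At 10 somites the call changed with the settings: over 22 alternatives the adjusted p of ccna2 ranged between 0.0201 and 0.319, and it was under the threshold in 5 of them, among them the one without the morphant array numbered 3 at 18 somites (0.0316).

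ccnb1 encodes cyclin B1, the partner of Cdk1 in mitosis, and its probe set carries a suffix that marks probes shared by more than 1 transcript. At 10 somites its signal was 11.11, 10.96 and 11.11 on morphant arrays, against 11.27, 11.23 and 11.30 on control arrays. The groups stood apart, with the morphant array numbered 2 the lowest. The difference was -0.21 (SE 0.0713, interval -0.36 to -0.05), and its adjusted p of 0.0946 was above the threshold.

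At 18 somites ccnb1 had 9.84, 9.72 and 9.78 on morphant arrays, against 10.01, 9.94 and 10.14 on control arrays. Every morphant array was below every control array, and the control array numbered 3 was the highest of all. ccnb1 fell by 0.25 in morphants (SE 0.0713, interval -0.40 to -0.10, adjusted p = 0.0347). The adjusted p ranged between 0.0127 and 0.133 over 22 alternatives, and the call was lost in 7 of them: with array weights (0.051), with the stage fitted alone (0.0856), when control array 1 (0.076), control array 3 (0.133), morphant array 2 (0.108) or morphant array 3 (0.0707) was left out, and when the 4 arrays numbered 1 were (0.133).

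Of the kinases, cdk1 encodes the one that the cyclins switch on. At 10 somites its signal was 10.29, 10.03 and 10.06 on morphant arrays, against 10.66, 10.40 and 10.48 on control arrays. The array numbered 1 was the highest in either group, and each morphant array lay below the lowest control. The same-numbered differences of cdk1 were alike, -0.37, -0.38 and -0.41. cdk1 fell by 0.39 in morphants (SE 0.0939, interval -0.59 to -0.19, adjusted p = 0.021). The adjusted p ranged between 0.00265 and 0.0928 over 22 alternatives, and it was above 0.05 when control array 1 (0.0923), morphant array 2 (0.0928) or morphant array 3 (0.0862) was left out, and when the 4 arrays numbered 1 were (0.0835).

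At 18 somites cdk1 had 9.64, 9.39 and 9.63 on morphant arrays, against 9.71, 9.68 and 9.80 on control arrays. The groups again did not overlap, although the highest morphant array and the lowest control array were close. The difference of -0.18 (SE 0.0939, interval -0.38 to 0.02) had an adjusted p of 0.26 and was not called in any of 22 alternatives.

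plk1 encodes polo-like kinase 1, which acts at centrosomes, kinetochores and the midzone of the dividing cell. Its signal at 10 somites was 11.00, 10.86 and 10.99 on morphant arrays, against 11.24, 11.28 and 11.21 on control arrays. The groups stood clear of each other, by more than either group's own range. plk1 fell by 0.30 in morphants (SE 0.0805, interval -0.47 to -0.12, adjusted p = 0.0359). The call was lost with quantile normalization (0.077), without any 1 of the 6 arrays at 10 somites (0.0559 to 0.145) and without the 4 arrays numbered 1 (0.183), within a range of 0.00708 to 0.183 over 22 alternatives.

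At 18 somites the plk1 signal was 10.07, 10.04 and 10.30 on morphant arrays, against 10.28, 10.29 and 10.45 on control arrays. The morphant array numbered 3 lay among the controls, and the other two were below all of them. The difference was -0.20 (SE 0.0805, interval -0.37 to -0.03), with an adjusted p of 0.127 that became 0.032 without the morphant array numbered 3 (range 0.032 to 0.354 over 22 alternatives).

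cdc20 encodes the activator of the anaphase promoting complex. Its signal at 10 somites was 10.07, 9.91 and 9.96 on morphant arrays, against 10.19, 10.10 and 10.18 on control arrays. The groups did not overlap, but the highest morphant array was within 0.03 of the lowest control. The difference was -0.17 (SE 0.0838, interval -0.35 to 0.01), with an adjusted p of 0.242.

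At 18 somites cdc20 had 9.11, 8.94 and 9.28 on morphant arrays, against 9.25, 9.19 and 9.32 on control arrays. The morphant array numbered 3 was above 2 of the controls. The difference was -0.15 (SE 0.0838, adjusted p = 0.291), and neither stage gave a call for cdc20 in any of 22 alternatives. The smallest adjusted p was 0.115 at 10 somites and 0.0878 at 18 somites.

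kif11 encodes the kinesin motor that pushes the spindle poles apart. At 10 somites its signal was 10.48, 10.23 and 10.23 on morphant arrays, against 10.65, 10.60 and 10.43 on control arrays. The morphant array numbered 1 lay above the control array numbered 3, which was the lowest control, so the groups overlapped. The difference was -0.25 (SE 0.082, interval -0.42 to -0.07), with an adjusted p of 0.0839. With the replicate number as a block, kif11 was called at 10 somites (adjusted p = 0.0297), and its adjusted p was also under the threshold with array weights (0.0193), with control array 3 left out (0.0443) and with morphant array 1 left out (0.0321), within a range of 0.0193 to 0.266 over 22 alternatives.

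At 18 somites kif11 had 9.56, 9.54 and 9.63 on morphant arrays, against 9.71, 9.70 and 9.81 on control arrays. The groups stood apart, and the range within each was smaller than the difference of their means. The difference was -0.16 (SE 0.082, interval -0.34 to 0.01), which was not called (adjusted p = 0.229, range 0.116 to 0.475).

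kif23 encodes the kinesin of the centralspindlin complex, which organises the midzone and the site of cytokinesis. Its first probe set, annotated through a RefSeq transcript, had signals of 9.79, 9.69 and 9.77 on morphant arrays at 10 somites, against 10.24, 10.25 and 10.20 on control arrays. The gap between the groups was wider than the range within either. kif23 fell by 0.48 on this probe set (SE 0.0714, interval -0.64 to -0.33, adjusted p = 0.000981), and 1.34% of all probe sets had a lower difference. The call was kept in all 21 alternatives, with adjusted p between 0.000144 and 0.037.

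At 18 somites the first probe set had 8.61, 8.47 and 8.68 on morphant arrays, against 8.92, 8.88 and 9.04 on control arrays. Again every morphant array was below every control array, and array 2 was the lowest of each group. kif23 fell by 0.36 (SE 0.0714, interval -0.51 to -0.21, adjusted p = 0.00508), and 3.35% of all probe sets had a lower difference. The adjusted p ranged between 0.00193 and 0.0658, and the call was lost only without the 4 arrays numbered 1.

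The second kif23 probe set was annotated through an expressed sequence tag. At 10 somites its signals were 7.06, 7.07 and 7.20 on morphant arrays, against 7.36, 7.30 and 7.15 on control arrays. The control array numbered 3 was below the highest morphant array. The difference was -0.16 (SE 0.103, interval -0.38 to 0.06, adjusted p = 0.399).

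At 18 somites the second probe set had 6.45, 6.25 and 6.42 on morphant arrays, against 6.65, 6.21 and 6.48 on control arrays. The groups overlapped and the lowest array was a control. The difference was -0.08 (SE 0.103, interval -0.30 to 0.14, adjusted p = 0.701). The probe sets of kif23 gave different sizes. The first gave a lower difference than the second by 0.32 at 10 somites and 0.28 at 18 somites (first minus second -0.32 and -0.28). The mean of both probe sets was -0.32 at 10 somites (SE 0.0788, adjusted p = 0.0217) and -0.22 at 18 somites (SE 0.0788, adjusted p = 0.0873), so that the fall at 18 somites was called on the first probe set and not on the mean.

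**Figure D2:**
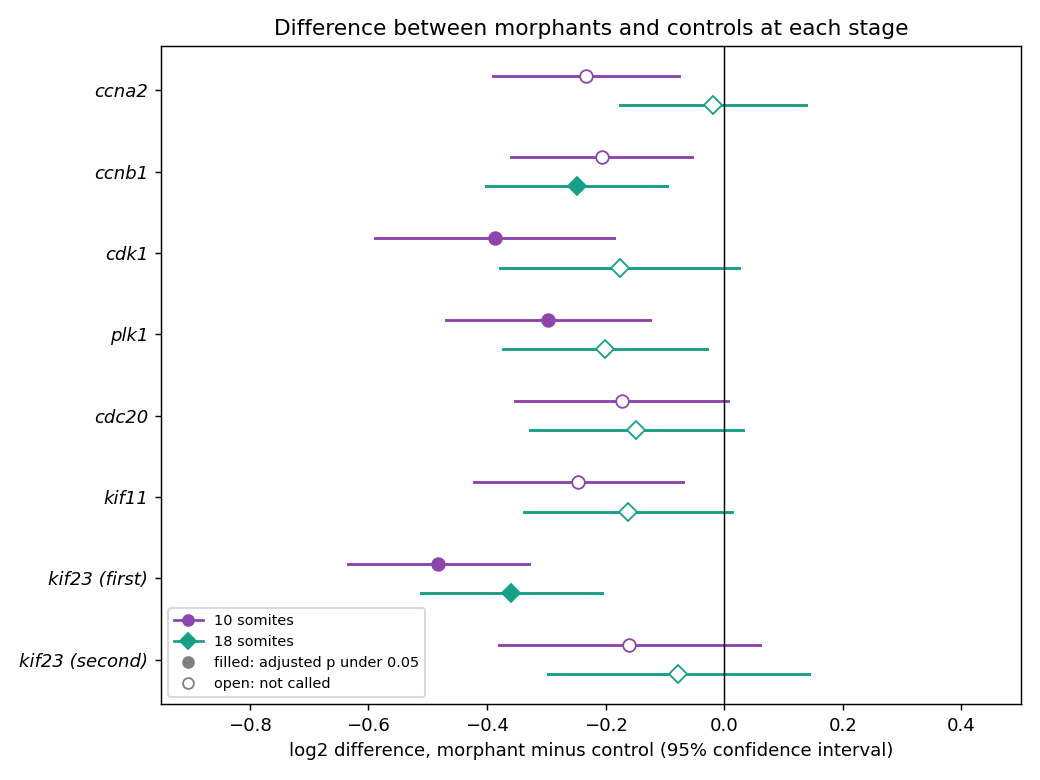
Log2 difference, morphant minus control, of each member probe set (horizontal axis) with its 95% confidence interval, as purple circles at 10 somites and green diamonds at 18 somites, filled where the adjusted p was under 0.05. Every point lies left of 0, and the first kif23 probe set lies farthest left at both stages, at -0.48 and -0.36.

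Averaging the effects of both stages uses all 12 arrays. In that mean 5 of 8 member probe sets fell, where 9.21% of all probe sets did, and none rose (0 at an unadjusted p under 0.05), where 12.2% of all probe sets did. kif23 fell by 0.42 on its first probe set (SE 0.0505, adjusted p = 6.08e-05). The next was cdk1, which fell by 0.28 (SE 0.0664, adjusted p = 0.00789). plk1 fell by 0.25 (adjusted p = 0.00654), a call lost without the 4 arrays numbered 1 (0.0598). ccnb1 fell by 0.23 (adjusted p = 0.00538), and ccnb1, cdk1 and the first kif23 probe set kept their calls in all alternatives.

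kif11 fell by 0.20 in the mean of the stages (SE 0.058, adjusted p = 0.0217, range 0.00651 to 0.0601). Leaving out 1 array ended that call for morphant arrays 2 (0.0576) and 3 (0.0601) and control arrays 1 (0.0541) and 2 (0.0528) at 10 somites and for control array 3 at 18 somites (0.0524), as did leaving out the 4 arrays numbered 1 (0.0537). cdc20 had a difference of -0.16 (SE 0.0592, adjusted p = 0.0694), and with the replicate number as a block it was called (0.0246). It was called in 6 of 21 alternatives, with an adjusted p between 0.0177 and 0.203. ccna2 had -0.13 (adjusted p = 0.102), and the second kif23 probe set -0.12 (adjusted p = 0.278).

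**Figure D3:**
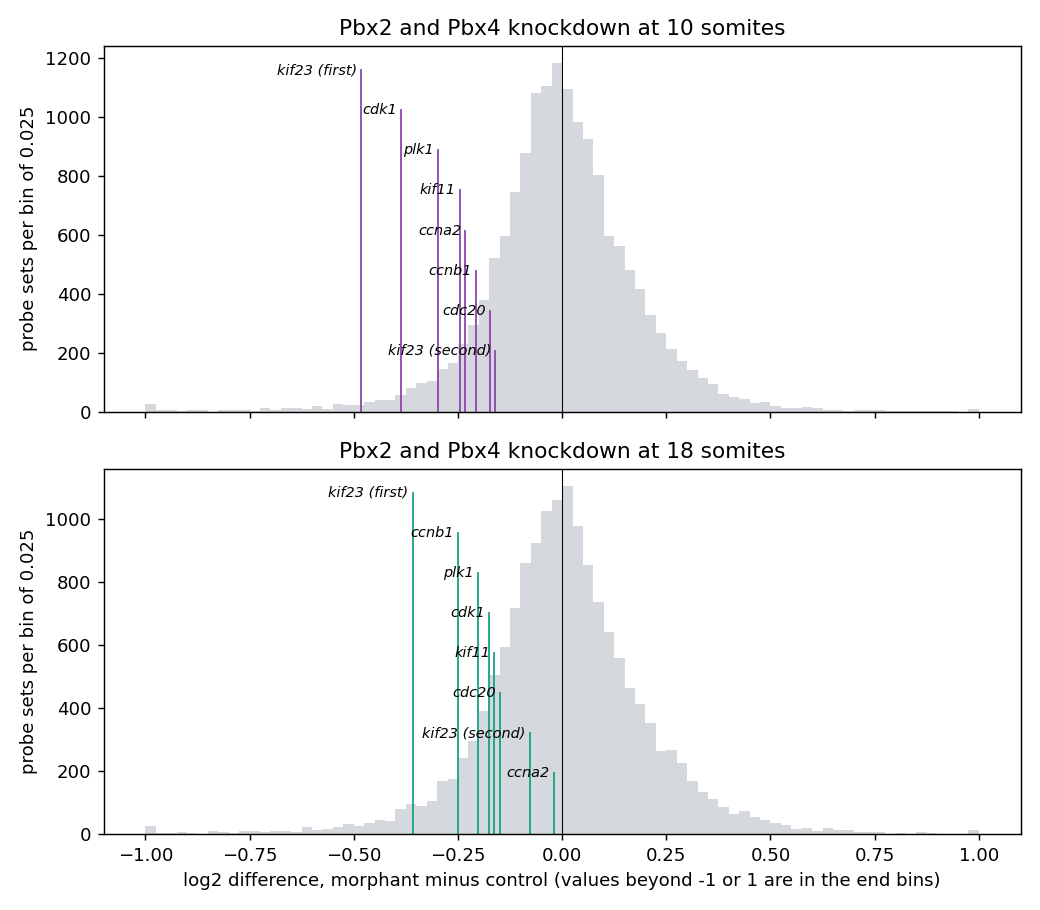
Histogram of the log2 difference, morphant minus control, of all 15502 probe sets in grey (horizontal axis, bins of 0.025, vertical axis the number of probe sets), at 10 somites above and 18 somites below, with the members as named lines. The members lie on the left side of each histogram, between -0.48 and -0.16 at 10 somites and between -0.36 and -0.02 at 18 somites.

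Whether the effect differed between the stages was tested directly, as the effect at 18 somites minus that at 10 somites. None of the 8 member probe sets was called (limma), none had an unadjusted p under 0.05, and 0.0323% of all probe sets were called. ccna2 had the value farthest from 0, 0.21 (interval -0.01 to 0.44, unadjusted p = 0.0583, adjusted p = 0.636). For cdk1 the value was 0.21 (interval -0.07 to 0.50, adjusted p = 0.753), and for the first kif23 probe set 0.12 (interval -0.09 to 0.34, adjusted p = 0.831). Each of these intervals includes 0. For ccna2 and cdk1 the interval also holds differences as large as the effect at 10 somites, and for the first kif23 probe set it does not.

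The stages themselves were compared within the morphants and within the controls, relative to the median of each array, because the deposited signals of the stages differ in median. ccnb1 was lower at 18 somites than at 10 somites by 0.53 in morphants (SE 0.0694, adjusted p = 3.14e-05) and by 0.47 in controls (adjusted p = 0.000102). The first kif23 probe set fell by 0.41 in morphants (SE 0.0674, adjusted p = 0.000186) and by 0.52 in controls (adjusted p = 3.57e-05). These 2 probe sets were the members called in morphants, where 28.6% of all probe sets fell between the stages.

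In controls 3 members were called, where 26.5% of all probe sets fell. The additional one was ccna2, which fell by 0.23 between the stages in controls (SE 0.0705, adjusted p = 0.0141) and had a change of -0.04 in morphants (adjusted p = 0.681). That call of ccna2 was lost with quantile normalization (-0.11, adjusted p = 0.229), without the control array numbered 3 at 18 somites (0.0546) and without the 4 arrays numbered 1 (0.0968). Apart from the subtracted array medians, the difference of the stage changes is the stage difference of the effect, which was not called for ccna2.

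The other members gave no call between the stages. cdk1 had values of opposite sign, with 0.18 in morphants (SE 0.0893, adjusted p = 0.111) and -0.02 in controls (adjusted p = 0.89). With a block that joined same-numbered arrays of both stages, the value of cdk1 in morphants was called (0.045), as it was with quantile normalization (0.32, adjusted p = 0.0146). plk1 had -0.06 in morphants and -0.14 in controls, and cdc20 had -0.13 in both. kif11 had 0.01 in morphants and -0.05 in controls, the second kif23 probe set 0.01 in morphants and -0.05 in controls. The median change of the members was -0.05 in morphants and -0.14 in controls, beside -0.02 over all probe sets in either. These values depended on the normalization. With quantile normalization ccna2 had 0.11 and cdc20 0.01 in morphants, and plk1 had 0.03 in controls, none of them called. ccnb1 and the first kif23 probe set kept their calls, at -0.39 and -0.29 in morphants and at -0.32 and -0.40 in controls.

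**Figure D4:**
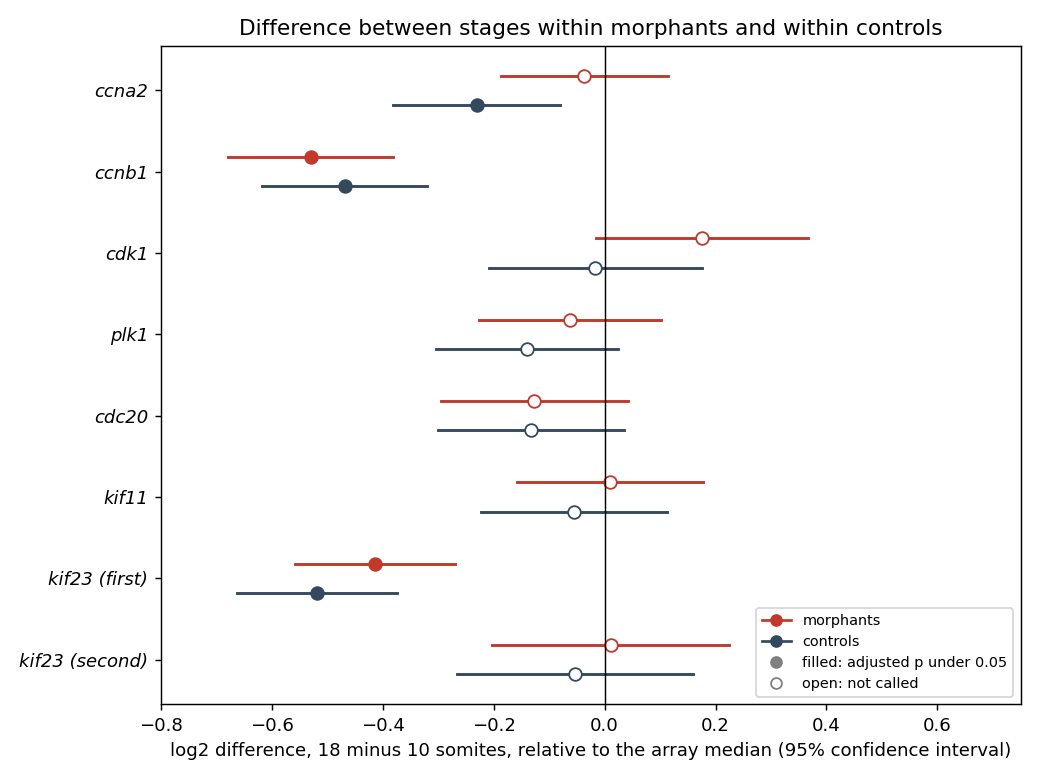
Log2 difference, 18 minus 10 somites, of each member probe set relative to its array's median (horizontal axis, with 95% confidence intervals), in morphants (red) above controls (dark blue), filled where the adjusted p was under 0.05. ccnb1 and the first kif23 probe set lie left of 0 in both sets of embryos, and ccna2 is filled in controls only, a difference between the sets that was not called.

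Averaged over the 7 genes, the signal at 10 somites was 10.26, 10.11 and 10.19 on morphant arrays, against 10.49, 10.44 and 10.42 on control arrays. At 18 somites it was 9.34, 9.22 and 9.42 on morphant arrays, against 9.49, 9.44 and 9.56 on control arrays. The groups did not overlap at either stage, but at 18 somites the highest morphant array was within 0.02 of the lowest control.

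The morphant array numbered 2 was the lowest of its 3 for 6 of 8 member probe sets at 10 somites and for 8 of 8 at 18 somites, and the control array numbered 2 was the lowest for 6 of 8 at 18 somites. The array numbered 3 was the highest for 5 of 8 among morphants and for 6 of 8 among controls at 18 somites. The controls at 10 somites showed no such order, with the arrays numbered 1, 2 and 3 the lowest for 1, 3 and 4 of 8. With each signal set against its stage's mean, the correlation of a gene with the mean of the other 6 over the 12 arrays was 0.94 for plk1, 0.92 for cdk1, 0.91 for kif23, 0.90 for cdc20, 0.87 for kif11, 0.85 for ccnb1 and 0.70 for ccna2. These arrays share the difference between morphants and controls, so the values describe the arrays and are no test.

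By the same measure, the 5 genes outside the members with the pattern most like their mean over 12 arrays were apoa4b.2 (r = 0.975), cdca3 (0.972), ccnb3 (0.965), mki67 (0.956) and ttf2 (0.955), with rank correlations between 0.944 and 0.979. Because that mean was itself lower in morphants, a gene picked for following it tends to be lower there too. The differences of these 5 genes follow from that choice, so they and their adjusted p-values are a description and no test. apoa4b.2 encodes an apolipoprotein, which carries lipids. Its difference was -0.37 at 10 somites (adjusted p = 0.0195, and 0.0635 to 0.0858 without control array 1 or 2, morphant array 2 or 3 or the 4 arrays numbered 1) and -0.23 at 18 somites (adjusted p = 0.107). cdca3, whose human counterpart helps remove a brake on Cdk1, had -0.48 at 10 somites (adjusted p = 0.00898, and 0.0725 without the 4 arrays numbered 1) and -0.20 at 18 somites (adjusted p = 0.225). ccnb3 encodes another B-type cyclin and has 4 probe sets. The one most like the members had -0.30 at 10 somites (adjusted p = 0.0204, and 0.0737 to 0.122 without control array 1, morphant array 2 or 3 or the 4 arrays numbered 1) and -0.14 at 18 somites (adjusted p = 0.262). The ccnb3 probe set with the highest mean gave -0.19 (adjusted p = 0.158) and -0.16 (adjusted p = 0.211) and was not called. mki67 encodes a protein that coats mitotic chromosomes. Of its 3 probe sets, the one most like the members carries the same cluster number as that of plk1. It had -0.38 at 10 somites (adjusted p = 0.00874, and 0.127 without the 4 arrays numbered 1) and -0.27 at 18 somites (adjusted p = 0.0345, and 0.0562 to 0.162 with the stage fitted alone, without the 4 arrays numbered 1 or without any 1 array of that stage but morphant array 3). ttf2, a transcription termination factor in human cells, fell by 0.45 at 10 somites (adjusted p = 0.00204) and by 0.29 at 18 somites (adjusted p = 0.0201, and 0.0519 to 0.188 with the stage fitted alone or without control array 1 or 3, morphant array 1 or 2 or the 4 arrays numbered 1).

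The neighbours of the members in the same machinery were counted from 8 lists of cell cycle genes, each gene by 1 probe set. Some genes have more. Apart from ccnb3, those named below with 2 probe sets are incenp, cdkn1bb, tubb5, gng3 and syt1a. septin7a and sox3 have 3, and elavl3 has 4. Their other probe sets are not reported here. Over all probe sets, 3.85% fell and 4.32% rose at 10 somites, and 5.37% fell and 7.11% rose at 18 somites. The list counts stand beside these shares and were not tested. Like the members, the lists were chosen with earlier results of these data known. Closest to kif23 stood the central spindle and cytokinesis list, of which 16 of 18 genes were measured. At 10 somites 2 fell and none rose (1 higher at an unadjusted p under 0.05), and at 18 somites 2 fell and 1 rose, with medians of -0.10 and -0.04, the second of which turned positive under some alternatives. With the block 3 fell at each stage, without the 4 arrays numbered 1 only 1 did, and with 1 array left out 1 to 3 fell at 18 somites. racgap1, the partner of kif23 in centralspindlin, had a signal of 8.66 ± 0.14 in morphants and 9.39 ± 0.135 in controls at 10 somites (SD, n = 3 each). At 18 somites racgap1 had 7.67 ± 0.06 in morphants and 8.22 ± 0.185 in controls. It fell by 0.72 (SE 0.101, adjusted p = 0.000607) and by 0.55 (adjusted p = 0.00315), calls kept in every alternative. incenp, the scaffold of the complex that holds the aurora B kinase, fell by 0.38 at 10 somites (adjusted p = 0.00512, and 0.108 without the 4 arrays numbered 1). septin7a, a filament protein of the cytoskeleton, rose by 0.33 at 18 somites (adjusted p = 0.00314).

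In the list of mitotic entry kinases and cyclins, 18 of 23 genes were measured. None fell and 2 rose at 10 somites (6 were lower at an unadjusted p under 0.05), with ccnb3 counted by its probe set of highest mean, and 3 fell and 1 rose at 18 somites, with medians of -0.09 and -0.04. With the replicate number as a block 1 fell at 10 somites and 5 at 18 somites, and with 1 array left out 1 to 3 fell at 18 somites and 1 to 3 rose at 10 somites. foxm1, a transcription factor that switches on late cell cycle genes including cyclin B in mammals, fell by 0.30 at 18 somites (SE 0.0633, adjusted p = 0.00669). cdk7, the kinase that activates other cyclin-dependent kinases, rose by 0.40 at 10 somites (adjusted p = 0.00264, and 0.0718 without the 4 arrays numbered 1).

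Of the spindle, kinetochore and checkpoint genes, 27 of 37 were measured. At 10 somites 2 fell and 1 rose, and at 18 somites 3 fell and 1 rose. With the block 6 fell at 10 somites and 5 at 18 somites, and without the 4 arrays numbered 1 the counts that fell were 0 and 2. The differences lay below 0 for 25 of 27 genes at 10 somites and 22 of 27 at 18 somites, with medians of -0.17 and -0.10. nuf2, a kinetochore component that grips microtubules, fell by 0.34 at 10 somites (adjusted p = 0.00452, and 0.0825 without the 4 arrays numbered 1) and by 0.31 at 18 somites (adjusted p = 0.0057). tubg1, the gamma tubulin that seeds microtubules, fell by 0.34 at 18 somites (adjusted p = 0.00402). The gene that rose was mad2l2, by 0.27 at each stage. Its adjusted p was 0.0167 at 10 somites, and 0.0559 to 0.179 where the call was lost. At 18 somites it was 0.0103, and 0.0504 to 0.125 where the call was lost.

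The list of the anaphase promoting complex and chromosome separation had 13 of 20 genes measured. At 10 somites 1 fell and none rose (1 higher at an unadjusted p under 0.05), and at 18 somites 1 fell and 2 rose, with medians of -0.01 and -0.08. With the block, 3 fell and 1 rose at 10 somites, and 2 fell and 2 rose at 18 somites. The gene that fell in both was anapc10, a subunit that helps the complex bind its substrates, by 0.48 (SE 0.0653, adjusted p = 0.000492) and by 0.44 (adjusted p = 0.000715). Those that rose at 18 somites were fzr1a and anapc13. fzr1a rose by 0.29 (adjusted p = 0.01, and 0.118 without the 4 arrays numbered 1). anapc13 rose by 0.25 (adjusted p = 0.0247, and 0.0772 to 0.158 where the call was lost). Of condensin, cohesin and chromosome structure genes, 15 of 22 were measured, of which 4 fell at 10 somites and 3 at 18 somites and none rose (1 higher at an unadjusted p under 0.05 at each stage). Those counts were 1 to 4 at 10 somites and 0 to 3 at 18 somites with 1 array left out and 0 at both stages without the 4 arrays numbered 1, and the medians were -0.18 and -0.17.

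Genes of replication and S phase, the list with the most genes measured, gave the largest counts of the lists. Over all probe sets 3.85% fell at 10 somites and 5.37% at 18 somites. Of 41 genes 35 were measured, 17 fell at 10 somites and 17 at 18 somites, and none rose (0 at an unadjusted p under 0.05 at both stages), with medians of -0.27 and -0.21. Leaving out 1 array gave 12 to 18 genes at either stage, and leaving out the 4 arrays numbered 1 gave 2 at 10 somites and 5 at 18 somites. rfc1, a subunit of the loader of the replication clamp, fell by 0.86 at 10 somites (SE 0.0746, adjusted p = 1.13e-05) and by 0.83 at 18 somites (adjusted p = 1.78e-05). Of the helicase subunits that open the DNA, mcm4 fell by 0.41 at 10 somites (adjusted p = 0.000996), and mcm5 and mcm2 fell by 0.46 and 0.45 at 18 somites (adjusted p = 0.000613 and 0.000335).

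The G1 cyclins and cell cycle inhibitors, of which 11 of 23 were measured, had 1 gene higher and none lower at 10 somites (0 at an unadjusted p under 0.05), and 2 lower and 1 higher at 18 somites. With 1 array left out, 0 to 1 rose at 10 somites and 0 to 2 fell at 18 somites, and quantile normalization gave 0 that rose at 10 somites. The medians of that list, -0.07 and 0.06, changed sign under some alternatives. cdkn1bb, an inhibitor of cyclin-dependent kinases of the p27 family, rose by 0.53 at 18 somites (SE 0.0668, adjusted p = 0.000238). At 10 somites its difference was 0.24 (adjusted p = 0.044, and 0.051 to 0.167 where the call was lost, which included leaving out any 1 array of that stage). At 18 somites the cdkn1bb probe set used here, 1 of 2, had 8.45 ± 0.1 in morphants and 7.93 ± 0.033 in controls (SD, n = 3 each).

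**Figure D5:**
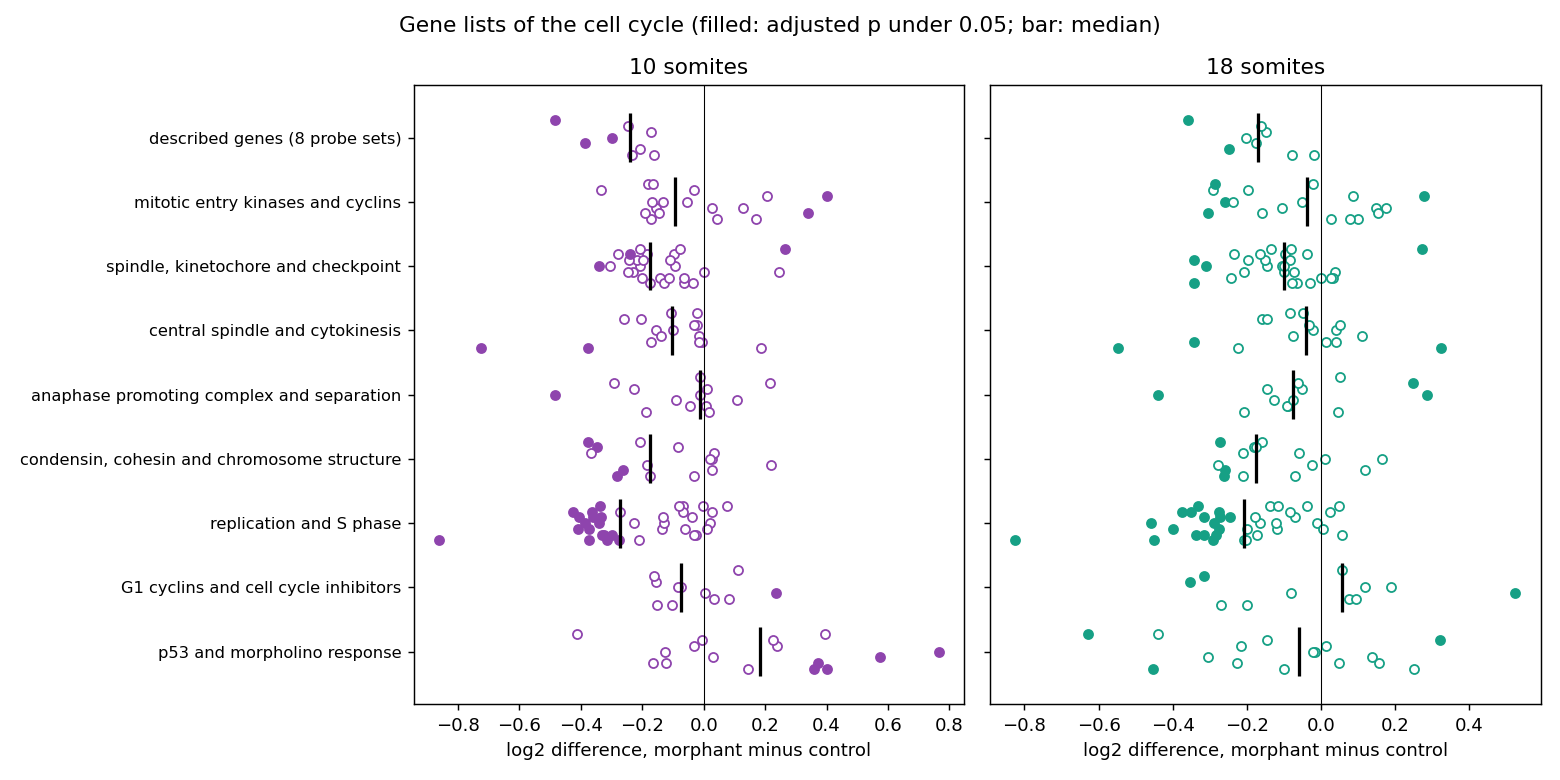
Log2 difference, morphant minus control (horizontal axis), of the 8 member probe sets and of the measured genes of 8 lists, at 10 somites on the left and 18 somites on the right, filled where the adjusted p was under 0.05, with a bar at the median. The replication and S phase list, which has the most genes measured, holds the most filled points, 17 at each stage, all left of 0.

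Morpholinos can switch on genes of the p53 pathway, which slows division and promotes cell death. Of 22 genes listed for that response 16 were measured. At 10 somites 5 rose and none fell (1 lower at an unadjusted p under 0.05), and at 18 somites 1 rose and 2 fell, with medians of 0.18 and -0.06. The count at 10 somites was 2 to 5 when 1 array was left out, and 2 without the 4 arrays numbered 1. With the block, 6 rose and 1 fell at 10 somites and 2 rose and 3 fell at 18 somites. casp8, a caspase that starts cell death, rose by 0.77 at 10 somites (SE 0.108, adjusted p = 0.000644), and phlda3, a p53 target, by 0.58 (SE 0.104, adjusted p = 0.00384). At 18 somites casp8 had a difference of -0.02 (adjusted p = 0.951) and phlda3 -0.30 (adjusted p = 0.0735). The part of this response in the members' differences was not tested.

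Markers of cell types that divide or have stopped dividing were counted in the same way. Of the neural progenitor markers, 12 of 16 were measured and 4 fell at each stage (2 to 4 with 1 array left out), with none higher (0 at an unadjusted p under 0.05). Their summed signal, on the log2 scale, was 13.20 to 13.27 in morphants and 13.41 to 13.44 in controls at 10 somites, and 12.51 to 12.64 in morphants and 12.68 to 12.76 in controls at 18 somites, with no overlap. Such a sum is taken on unlogged signals, so the markers with the highest signals weigh most in it. Those were sox3, with differences of -0.32 and -0.31 (limma, adjusted p = 0.0307 and 0.0285), and sox19a, with -0.18 and -0.13 and no call. Whether the calls of sox3 hold under the alternatives is not reported here. Among the progenitor markers gfap fell by 0.54 at 10 somites (adjusted p = 0.00285) and by 0.62 at 18 somites (adjusted p = 0.000794). The medians of the progenitor list were -0.14 and -0.11. At each stage 8 of 12 progenitor markers were not called, and the differences of 8 of 12 lay below 0. Of the markers of postmitotic neurons, 12 of 18 were measured, 2 fell at 10 somites and 5 at 18 somites, where 1 rose, with 4 and 6 that fell under the block and 2 at each stage without the 4 arrays numbered 1. Their summed signal was 11.36 to 11.40 in morphants and 11.65 to 11.67 in controls at 10 somites, and 10.84 to 10.95 in morphants and 11.06 to 11.15 in controls at 18 somites. The medians of this list were -0.10 and -0.22, and 10 of 12 markers were not called at 10 somites and 6 of 12 at 18 somites. At 10 somites the means of elavl4, snap25a, snap25b, stmn2a, gng3 and syt1a lay within the tag range of their group. Of these, syt1a was called. At 18 somites the called snap25a, stmn2a and gng3 had means of 5.10, 5.32 and 4.90 in morphants, within the tag range. In controls they had 5.66, 5.62 and 5.31, beside a highest tag of 5.29. The counts of this list, called or not, thus rest partly on signals near background. tubb5 and elavl3, which had the highest signals of the list at 10 somites, were not called there (limma, adjusted p = 0.0596 and 0.0549). The gene that rose was isl2a, a transcription factor of postmitotic neurons, by 0.53 at 18 somites (adjusted p = 0.00125). neurog1, which was on this list although it acts in progenitors that are about to become neurons, fell by 0.73 at 10 somites (adjusted p = 0.000103) and by 0.41 at 18 somites (adjusted p = 0.00498).

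Of the muscle markers, 13 of 17 were measured, 1 fell at 10 somites, and 3 fell and 1 rose at 18 somites. Their summed signal overlapped, at 14.20 to 14.25 in morphants and 14.10 to 14.27 in controls at 10 somites and at 14.04 to 14.27 in morphants and 14.21 to 14.30 in controls at 18 somites. actc1a, which had the highest signals and so weighs most in the sum, was not called (adjusted p = 0.208 and 0.738). myog fell by 1.03 at 10 somites and by 0.70 at 18 somites (limma, adjusted p = 0.000926 and 0.00809). tpma fell by 0.58 at 18 somites (adjusted p = 0.000555). The gene that rose was myod1, by 0.33 (adjusted p = 0.0198, and 0.0515 to 0.0865 where the call was lost). The medians of the muscle list were 0.004 and -0.05, and their sign changed under some alternatives. Of the blood markers, 11 of 13 were measured, 2 fell at 10 somites (1 to 3 with 1 array left out), and 1 fell and 1 rose at 18 somites, where 2 fell under the block. Their summed signal was 10.46 to 10.72 in morphants and 11.06 to 11.20 in controls at 10 somites, and overlapped at 18 somites with 10.76 to 11.56 in morphants and 11.38 to 11.64 in controls. In that list lcp1, an actin-bundling protein of white blood cells, fell by 2.67 at 10 somites (adjusted p = 8.39e-07) and by 1.12 at 18 somites (adjusted p = 0.0011), whereas the medians of the list were -0.15 and -0.11 and 9 of 11 markers were not called at each stage. At 10 somites lcp1 had the highest control mean of the blood markers, 8.93, against 6.26 in morphants. It therefore weighs heavily in the blood sum there, and a sum without it was not taken. The markers of germ cells and maternal RNA, of which 8 of 10 were measured, gave no call at either stage (limma, 0 at an unadjusted p under 0.05 in either direction), and their summed signal overlapped at both, at 9.95 to 10.09 in morphants and 10.01 to 10.03 in controls at 10 somites and at 9.08 to 9.18 in morphants and 9.11 to 9.25 in controls at 18 somites. The means of buc and zar1 lay within the tag range of their group at both stages, as did those of ddx4 at 18 somites. For such signals a missing call says little. The part of any of these cell types in the differences of the mitosis and cytokinesis genes was not tested.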

How the data were processed

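The deposited table held log2 expression values per probe set for 12 arrays, which the authors had made with RMA and the affy package, per the submitters' processing notes. RMA corrects background, normalizes across arrays and summarises probes, which can shrink small differences. The arrays that shared a normalization were not given in the sources used here. Leaving out 115 AFFX controls left 15502 probe sets. Of these 15502 tested probe sets, 10795 had 1 gene symbol in the platform annotation, 135 several and 4572 none, and 10711 were matched to RefSeq genes of GRCz12tu by gene ID, for names only.

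Group means were fitted with limma 3.58.1 in R 4.3.3 on all 12 arrays (8 residual and 6.06 prior degrees of freedom). Moderated tests were two-sided, p-values were adjusted by Benjamini and Hochberg over all 15502 probe sets, and an adjusted p under 0.05 was called. Values between stages had each array's median subtracted. A gene of a list was represented by its probe set with the highest mean. Genes named from the lists came from the 3 lowest and 3 highest called differences of each list and stage, apart from cell type markers named for the height of their signal. The nearest patterns were the 5 genes with the highest correlation over the 12 arrays with the members' mean, among the more variable probe sets. The members and lists were chosen with earlier results of these data known.

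On simulated data for the comparison at 10 somites, with 15502 probe sets, 8 of 100 falls of 0.25 and 76 of 100 falls of 0.5 were called, with 1 false call. Only these probe sets were changed in the simulation, whereas 1267 were called in the data. The adjustment depends on how many probe sets differ, so the simulated shares may not hold for the data. Same-numbered arrays of a stage deviated together (r of 0.214 to 0.548 for the 6 pairs, all over 0.1), and differently numbered ones had r of -0.427 to 0.231. The labels do not say what a number marks. The printed estimates and calls come from the fit without a block, and the block on replicate number is an alternative. It is printed where it changes a member's call and for some list counts, and it also changed list counts that are not printed. For the stage changes within morphants or controls, that block joined same-numbered arrays of both stages, a pairing that was not checked. The alternatives were other normalizations, variance priors, array weights, a filter, stages fitted alone, the block, gene means and leaving out arrays. Promoter motifs were not searched, since promoter sequences were not used here.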

Additional observations from a re-analysis of the deposited data

How the results depend on the processing

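No member's effect at 10 or 18 somites, and no member's mean effect, that was called changed direction under any alternative. With 3 arrays a group, a difference of -0.25 was called for ccnb1 at 18 somites and was not called for kif11 at 10 somites. Counts of called probe sets depended on the settings. At 10 somites 1267 probe sets were called, against 2447 with array weights, 2040 with the replicate block, 2155 with a block shared by both stages (chosen after seeing the data) and 333 to 1447 when arrays were left out. Members lower at 10 somites numbered 3, against 5 with array weights, 5 with the shared block and 1 to 4 when arrays were left out. At 18 somites members lower numbered 2, against 1 with array weights, 1 with the stage fitted alone, 1 with gene means and 0 to 2 when arrays were left out, and the 1935 probe sets called became 677 to 1987. For the mean of both stages, 3321 probe sets became 1735 to 3275 and 5 members 3 to 7. The difference between stages was called for 5 probe sets, against 11 with quantile normalization, 14 with median subtraction, 33 with a trended robust prior, 32 with array weights, 3 with the 60% filter, 52 with the replicate block, 55 with the shared block, 8 with gene means and 0 to 20 when arrays were left out, and for 0 members in each. Between the stages, members lower numbered 2 in morphants and 3 in controls, 2 to 3 in either when arrays were left out, and 8 in either on the values as deposited, which keep the offset between the stages' medians. On those values the change in morphants was reversed for cdk1 (-0.57), kif11 (-0.74) and the second kif23 probe set (-0.74). The replicate block changed the calls of kif11 at 10 somites, of cdc20 in the mean of both stages and of cdk1 between stages in morphants, and no other member's call. For cdk1 the block joined same-numbered arrays of both stages. Where a cause is not given here, the cause was not tested.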
